A study of Mus musculus with 6 samples.

Results

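Translation initiation and elongation factors are the proteins that bring the ribosome to the start codon of an mRNA and then drive it along the message. Their genes were taken as all protein-coding RefSeq symbols beginning with Eif or Eef and a digit, without the eIF2 kinases (symbols beginning with Eif2ak). This gave 61 genes out of 20275 coding symbols in the expression table. Of the 61, 4 are Argonaute genes of small-RNA silencing that RefSeq then listed under the older symbols Eif2c1 to Eif2c4, which leaves 57 genes named for translation factors. RNA was sequenced from primary wildtype mouse embryonic fibroblasts (MEFs), either left untreated or given TNFα at 20 ng/ml for 1.5, 6 or 24 hr. TNFα is a cytokine that activates the transcription factor NF-κB. The MEFs came from littermate embryos at E13.5 on a mixed C57BL/6 and 129 background, carried no engineered allele and were used at passage 4. There was 1 RNA library per time, so no value has a replicate and no test between times was possible. A ChIP-seq library for H3K4me3, a histone mark of active promoters, and an input library were made from untreated MEFs only.

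Initiation begins when eIF2 carries the initiator tRNA to the small ribosomal subunit, with eIF1, eIF1A and eIF3 bound to it. The eIF4 factors bind the mRNA cap and unwind the message, eIF5 triggers GTP hydrolysis on eIF2 at the start codon, and eIF5B joins the large subunit. In elongation eEF1A delivers aminoacyl-tRNA, eEF1B recharges eEF1A with GTP, eEF2 moves the ribosome by a codon and eIF5A helps it through difficult stretches. Control acts at eIF2B, which recharges eIF2, at the 4E-BPs, which hold back the cap-binding protein eIF4E, and at the kinase of eEF2.

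The authors' RPKM values are read counts scaled by transcript length and by sequencing depth, so they can be compared between genes, but the table has a scale of its own and the values below are deposited values on that scale. Each library has 2 columns, R1 and R2, whose content is not stated. Their mean was used, and R1 and R2 are given where they differ, as a spread within a library and not as replicates. As reads are not listed, no depth can be put behind a single value. Fewer cells of a type and less RNA per cell cannot be told apart in such bulk samples. The libraries differed as a whole. The summed value of all coding symbols over that of the untreated library was 1.20, 0.54 and 0.97 after 1.5, 6 and 24 hr, and the median log2 ratio to untreated over the 6050 coding symbols with an average value above 100 was 0.44, -0.74 and 0.10. Each log2 ratio is therefore given as deposited and also relative, which means after subtracting this median. The 5 TNFα response genes looked up as a check (Nfkbia, Sod2, Tnfaip3, Ccl2 and Cxcl10) were at least 2-fold higher at every time. Of 7 fibroblast markers 6 were above the minimum. Col1a1 was at 44002 in the untreated library and Pdgfra, the marker under the minimum, at 112. The summed value of the markers was 80834 before TNFα and 74564, 38433 and 47077 after 1.5, 6 and 24 hr, and 3 of the 6 were at least 2-fold lower at 6 hr and 3 at 24 hr, and their part in the results was not tested. The summed value of 4 endothelial markers was at most 5.04 and that of 4 epithelial markers at most 49.1, with Epcam listed at 0 in all 4 libraries. The sum over 5 macrophage and leukocyte markers was 980 before TNFα and 1279, 335 and 532 after 1.5, 6 and 24 hr, mostly from Cd68 and Csf1r, and the part of these cells in the results was not tested.

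In untreated MEFs most of the factors were strongly expressed. Their median percentile among all coding symbols was 88.5, and 30 of the 61 were at or above the 90th percentile. The highest level was that of Eef2 (chr10:80639376-80645252, mm9), at 12296, followed by Eef1a1 (chr9:78326256-78336958), which encodes the main form of eEF1A, at 12041. The cap-binding repressor Eif4ebp1 was at 6057, the eEF1B subunit Eef1g at 5650 and Eif5a at 5301. At the other end, 5 genes did not reach an average of 100 over the 4 libraries and enter no count of 2-fold differences below. These were Eef1a2, the muscle and neuron form of eEF1A, at 0.46 in the untreated library, Eif4e1b, a germline form of eIF4E, at 0.50, Eif5a2 at 2.84, and the Argonaute genes Eif2c3 at 40.2 and Eif2c4 at 7.16. Eef1a2 was listed at 0 at 24 hr, and Eif4e1b at 1.5 and 6 hr. For eEF1A and eIF5A 1 form thus held nearly all of the message, and Eif5a was 1865 times Eif5a2 in the untreated library.

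H3K4me3 lay over the starts of nearly all of these genes. Of the 60 genes with a start in the GENCODE annotation of mm9, 56 had a peak within 1 kb, and in all 56 the peak covered the start itself. Among the genes above the minimum of expression this was 53 of 55 (96.4%), beside 89.8% of all coding symbols above it. The 4 genes without a peak within 1 kb of the start used were Eef1a2, Eif4e1b, Eif4ebp3, whose nearest peak was 4226 bp away, and Eif2c1, 3122 bp away. Eif2c1 lies on the minus strand, and its annotated gene begins at 126145878, inside that nearest peak (chr4:126144282-126146656). The start used for it, 126141160, is that of its coding transcript with the longest coding part. The peaks at the factors held 561 to 2907 tags with a median of 1590, and the median over all coding symbols above the minimum was 1336. The largest tag count was that of Eef2. A peak was present at Eif5a2 as well, with 600 tags and a fold enrichment of 95.1, although its expression was among the lowest (2.84 untreated). Eef1a2 (0.46) and Eif4e1b (0.50), which were lower still, had none.

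The letters CACGTG, the E-box bound by Myc and related factors, were found in the 300 bases around the start (250 before to 50 after) of 10 of 60 factors (16.7%), in 10.6% of coding symbols above the minimum and in 8.11% of all coding symbols. This motif reads the same on both strands. The 10 genes were Eef2, Eef2k, Eif1b, Eif3a, Eif3f, Eif3k, Eif4a1, Eif4h, Eif5a and Eif5a2. The 150 bases before the start are shown for 4 of them, a translocation factor and its kinase, a start-codon selection factor and an eIF3 subunit, because they place the motif in promoters that carried an H3K4me3 peak. CACGTG and TATAAA are in capitals, and the sequences are from mm9, read 5′ to 3′ on the strand of the gene.
Eef2, chr10:80639226-80639375, plus strand: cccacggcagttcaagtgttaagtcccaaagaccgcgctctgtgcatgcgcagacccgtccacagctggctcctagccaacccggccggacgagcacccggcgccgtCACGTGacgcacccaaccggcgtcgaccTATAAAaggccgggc
Eef2k, chr7:127986195-127986344, plus strand: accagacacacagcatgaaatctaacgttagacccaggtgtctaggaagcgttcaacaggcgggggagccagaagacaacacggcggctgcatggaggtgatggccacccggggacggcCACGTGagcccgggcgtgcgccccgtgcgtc
Eif1b, chr9:120401574-120401723, plus strand: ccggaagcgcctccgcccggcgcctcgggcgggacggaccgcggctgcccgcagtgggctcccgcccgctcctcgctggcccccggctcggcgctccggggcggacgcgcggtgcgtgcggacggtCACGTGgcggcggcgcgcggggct
Eif3f, chr7:116077781-116077930, plus strand: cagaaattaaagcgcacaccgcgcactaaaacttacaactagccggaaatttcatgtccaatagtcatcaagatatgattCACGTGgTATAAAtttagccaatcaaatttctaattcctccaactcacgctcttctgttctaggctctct
The motif began 43 bases before the start in Eef2, 31 in Eef2k, 24 in Eif1b and 70 in Eif3f. The window of Eif1b was 84.7% G and C and that of Eif3f 39.3%. TATAAA, read on both strands, was in the 300 bases of 4 of the 60 factors (6.67%) and of 7.30% of coding symbols above the minimum, and CCAAT in 16 (26.7%) and 37.9%. The κB motif was found at 1 factor, Eef1a1, beside 5.41% of coding symbols above the minimum. A match is a description of the letters and not a site of binding.

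After TNFα the factors as a set were higher at 1.5 and 24 hr and, as deposited, lower at 6 hr. Of the 56 genes above the minimum, 27 were at least 2-fold higher at 1.5 hr and 0 at least 2-fold lower, and among all 6050 coding symbols 29.8% were higher and 7.97% lower. At 6 hr 2 were higher and 12 lower, beside 1.83% and 31.5% of all coding symbols. At 24 hr 19 were higher and 0 lower, beside 16.8% and 12.8%. Of the 27 at 1.5 hr and of the 19 at 24 hr, 8 had an untreated value at or under 100. They passed the minimum through the TNFα libraries in which they were high. The median log2 ratio of the factors was 0.88, -0.59 and 0.59 at 1.5, 6 and 24 hr. All 3 comparisons share the untreated library. The 6 hr library was below both the 1.5 and the 24 hr library for 52 of the 56 factors (92.9%), and for 82.8% of all coding symbols.

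On the relative scale the direction at 6 hr turned. The median relative log2 ratio of the factors was 0.44, 0.14 and 0.49 after 1.5, 6 and 24 hr. At 1.5 hr 17 factors were at least 2-fold higher and 2 lower, where 15.8% and 17.4% of all coding symbols were. The counts at 6 hr were 6 and 0, beside 7.21% and 3.26%, and at 24 hr 17 and 0, beside 14.4% and 15.2%. Some of these genes had an untreated value under 100 and passed the minimum through TNFα libraries in which they were high. At 1.5 hr these were Eef1e1, Eif1b, Eif2a, Eif2b1, Eif2s1, Eif2s3x, Eif3j and Eif4e. The same genes without Eif1b were among the 17 at 24 hr. Among the 6 at 6 hr were Eef1e1, Eif2s1, Eif3j and Eif4e3. The factors made up 1.18% of the summed value of all coding symbols before TNFα and 2.17%, 1.45% and 1.99% after 1.5, 6 and 24 hr, so their share was higher in each TNFα library than in the untreated one. Eef1a1 and Eef2 together were 30.5% of the factors' sum in the untreated library and 49.0% at 1.5 hr.

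The log2 ratios varied with the GC content of the transcript, among all coding symbols as among the factors. Over 55 factors the Spearman correlation of relative log2 ratio and GC content was -0.47, -0.55 and -0.49 after 1.5, 6 and 24 hr, and over 5930 coding symbols it was -0.57, -0.36 and -0.56. These points share their libraries, and the correlations are descriptions across genes. At 1.5 hr the 16 factors with a GC content under 45% had a median relative log2 ratio of 1.20, and the 639 coding symbols in this range had 0.93. The 20 factors at 52% and over had a median of 0.08, whereas that of all 3385 coding symbols in the range was -0.48. After centring on coding symbols of like GC content in 20 bins, the median of the factors was 0.23, 0.10 and 0.24 after 1.5, 6 and 24 hr. On that scale 8 of 55 were at least 2-fold higher and 3 lower at 1.5 hr, beside 10.4% and 10.7% of all coding symbols. At 6 hr 2 were higher and 0 lower, beside 4.84% and 2.72%, and at 24 hr 8 were higher and 0 lower, beside 10.5% and 9.07%. Among those higher, Eef1e1 and Eif2s1 at 1.5 hr, Eif4e3 at 6 hr and Eif2b1 at 24 hr had an untreated value under 100. The share of factors higher at 1.5 hr was then near that of all coding symbols (14.5% against 10.4%). The part of GC content in the results was not tested.

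**Figure D1:**
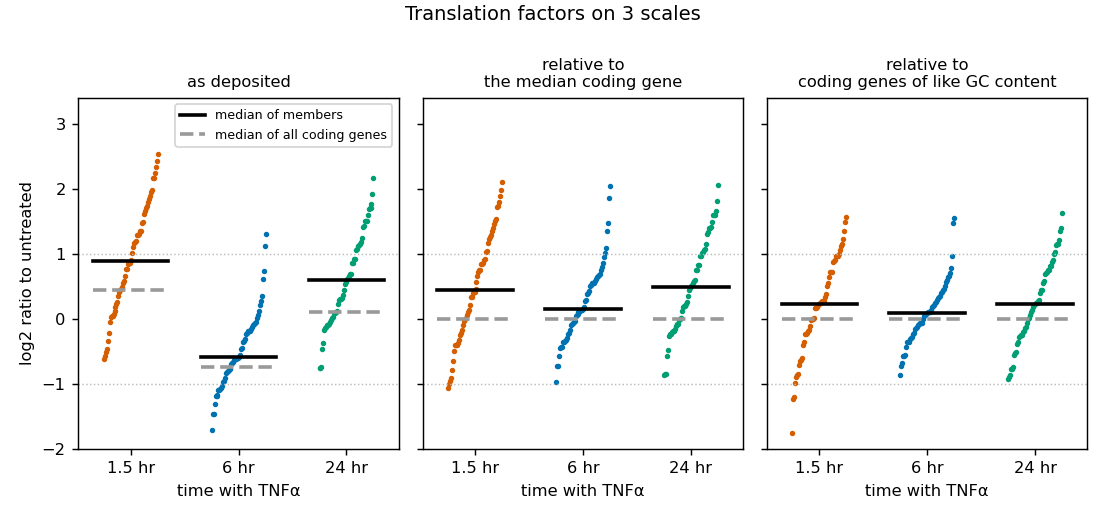
Log2 ratio to the untreated library at 1.5, 6 and 24 hr of TNFα for the translation factors above the minimum, as deposited, relative to the median coding gene and relative to coding genes of like GC content. Each point is a gene, in order of its ratio, black lines are the medians of the factors, dashed grey lines the medians of all coding genes, and dotted lines mark 2-fold. The median of the factors at 6 hr is -0.59 as deposited and 0.14 relative to the median coding gene.

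**Figure D2:**
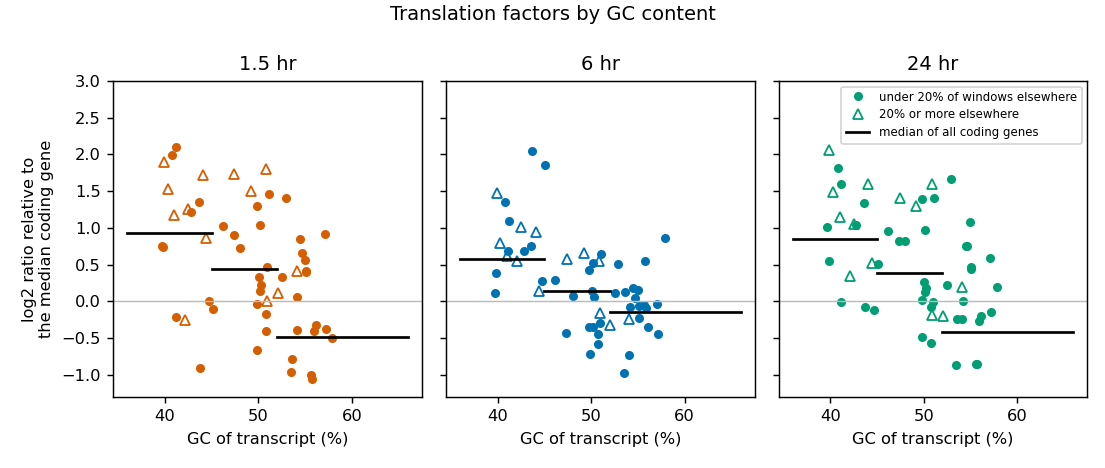
Relative log2 ratio (vertical axis) against GC content of the transcript in percent (horizontal axis) for the factors above the minimum at each time. Open triangles are genes with 20% or more of their sequence windows found elsewhere in the genome, and black lines are the medians of all coding genes in 3 ranges of GC content. Points at low GC content lie higher, and at 1.5 hr the median is 1.20 under 45% and 0.08 at 52% and over.

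A further property of the transcripts was set beside these ratios. Many of these genes have processed pseudogenes, and reads from shared sequence cannot be assigned with certainty. Each transcript was cut into windows of 50 bases, and 13 factors had 20% or more of their windows elsewhere in mm9. Among these 13, 8 were at least 2-fold higher on the relative scale at 1.5 hr, and among the other 42 with a sequence 9 were. Of all coding symbols 15.8% were, and their windows were not searched. Eif2s3x, Eif3j and Eif4e of the 8 passed the minimum with an untreated value under 100. So did Eef1e1, Eif1b, Eif2a, Eif2b1 and Eif2s1 of the 9. The largest shares were those of Eif2s3x (93.1%), Eif3j (83.2%), Eif4a1 (80.3%), Eef1a1 (72.6%, with 14 loci elsewhere) and Eef1g (68.4%). The values of these genes are uncertain for that reason, and how much of their ratios came from shared reads was not tested. A low starting level also entered the counts, since 9 factors passed the minimum although their untreated value was at or under 100, and 8 of the 9 were among the 27 higher at 1.5 hr.

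Among the elongation factors Eef1a1 had the highest level after TNFα. Its value was 12041 before TNFα and 54325, 10754 and 34359 after 1.5, 6 and 24 hr. The 1.5 and 24 hr libraries stood above the other two, by 4.51-fold and 2.85-fold over untreated, and the R1 and R2 columns gave log2 ratios of 2.14 and 2.22 at 1.5 hr. Eef2, which encodes the translocase, was at 12296, 31543, 7178 and 19904 in the same order. Its log2 ratio was 1.36 at 1.5 hr, and it was among the 8 genes at least 2-fold higher there after centring on GC content, with 1.50 on that scale. The ratio of Eef1a1 to Eef2, in which a factor common to a library cancels, was 0.98 in the untreated library and between 1.50 and 1.73 after TNFα. Their GC contents differ (47.4% and 57.1%), and after centring on it Eef1a1 was the lower of the pair, with log2 ratios of 1.16 and 0.88 at 1.5 and 24 hr where Eef2 had 1.50 and 1.15. Eef2k, the kinase that inhibits eEF2, was at 182, 187, 73.2 and 132, and its relative log2 ratios lay between -0.58 and -0.41.

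The eEF1B subunits spread widely. Eef1e1, a partner of the tRNA synthetase complex that is grouped with them, was at 38.8 before TNFα and 226, 49.4 and 126 after 1.5, 6 and 24 hr. Its log2 ratio at 1.5 hr was 2.54, and 2.27 with a pseudocount of 10. With an untreated value under 100, it passed the minimum through the 1.5 and 24 hr libraries, in which it was high. The log2 ratio at 1.5 hr was 2.10 relative and 1.11 after centring on GC content (41.2% GC). The gamma subunit Eef1g, at 5650, 8277, 2700 and 5283, had relative log2 ratios of 0.11, -0.33 and -0.20. The exchange subunit Eef1b2 was at 1137, 3161, 831 and 2381, so that the ratio of Eef1g to Eef1b2 was 4.97 in the untreated library and 2.22 at 24 hr.

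Eif5a, whose protein carries the modified lysine hypusine, was highest at 24 hr. It was at 5301 before TNFα and 10672, 3519 and 11980 after 1.5, 6 and 24 hr. As deposited it was 1 of 3 factors (5.36%) highest at 24 hr, with Eif2s2 and Eif6, beside 6.07% of all coding symbols. At 1.5 hr 46 of the 56 (82.1%) were highest, beside 59.4% of all coding symbols. On the relative scale 10 factors (17.9%) were highest at 24 hr, beside 20.7% of all coding symbols. On that scale 29 (51.8%) were highest at 1.5 hr, beside 28.6%. The relative log2 ratio of Eif5a at 24 hr was 1.07, and 1.35 after centring on GC content. The enzymes that make hypusine, Dhps and Dohh, were within 2-fold on the relative scale at each time. Dohh was at least 2-fold lower at 6 hr as deposited (-1.58) and at least 2-fold higher at 1.5 and 24 hr after centring on GC content (1.42 and 1.24).

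**Figure D3:**
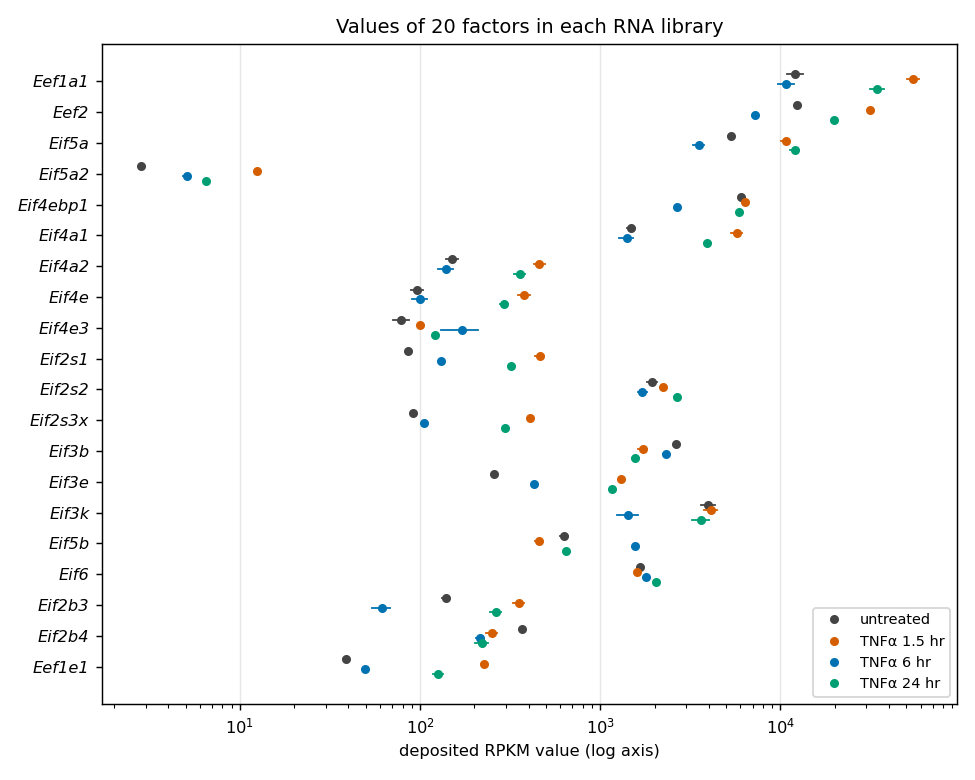
Deposited RPKM value (log axis) of 20 translation factors in the untreated library and at 1.5, 6 and 24 hr of TNFα, 1 library each. Points are the means of the R1 and R2 columns and lines join the columns. Eef1a1 lies at 54325 at 1.5 hr and 12041 untreated, and Eif5b is the gene here whose 6 hr value is far above its other 3.

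The subunits of eIF2 differed in level and in response. They were grouped with Eif2a, which encodes the separate factor eIF2A and not a subunit of eIF2. Of the 5 genes of this group, 4 were at least 2-fold higher at 1.5 hr, none at 6 hr and 3 at 24 hr, where 29.8%, 1.83% and 16.8% of all coding symbols were. Of the 4, Eif2a (54.6 untreated), Eif2s1 and Eif2s3x had an untreated value under 100 and passed the minimum through the libraries in which they were high. They had to differ for that reason. Eif2s1 encodes the alpha subunit that stress kinases phosphorylate, and it was at 85.3 before TNFα and 461, 130 and 322 after 1.5, 6 and 24 hr. The tRNA-binding gamma subunit Eif2s3x was at 90.9, 407, 105 and 296, and its Y-linked copy Eif2s3y at 108, 264, 85.6 and 174. The beta subunit Eif2s2, in contrast, was at 1946, 2219, 1709 and 2659. Eif2s1 and Eif2s3x were thus low before TNFα and more than 3-fold higher at 1.5 and 24 hr, and Eif2s2 was neither. The ratio of Eif2s2 to Eif2s1 was 22.8 before TNFα and 4.82, 13.1 and 8.27 after 1.5, 6 and 24 hr, and the columns taken singly gave 24.6 and 21.1 untreated and 5.14 and 4.52 at 1.5 hr. The transcripts of alpha and beta are alike in GC content (40.8% and 42.1%), and after centring on it their log2 ratios at 1.5 hr were 1.00 and -1.24. Eif2s2 has 39.8% of its windows elsewhere in the genome, Eif2s1 14.3% and Eif2s3x 93.1%.

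Of the 5 eIF2B subunits, 2 were at least 2-fold higher at 1.5 hr and 1 at least 2-fold lower at 6 hr, beside 29.8% and 31.5% of all coding symbols. Eif2b3 was on both sides, at 139 before TNFα and 352, 61.3 and 263 after 1.5, 6 and 24 hr. On the relative scale it was within 2-fold at each time, with log2 ratios of 0.90, -0.44 and 0.82. Eif2b2, the highest of the group, was at 564, 1018, 289 and 837. Eif2b4 was at 369, 250, 215 and 220, highest in the untreated library, and its relative log2 ratio of -1.01 at 1.5 hr made it 1 of the 2 factors at least 2-fold lower there. It was within 2-fold as deposited (-0.57), after centring on GC content (-0.61) and in the R2 column (-0.96). Its ratio to Eif2b1 was 5.11 in the untreated library and 1.04 at 1.5 hr. Eif2b1, 1 of the 2 subunits higher at 1.5 hr, was at 72.2 before TNFα. It passed the minimum through the 1.5 and 24 hr libraries, in which it was high. Eif2b4 and Eif2b1 differ in GC content (55.6% and 49.8%). After centring on GC content their log2 ratios at 1.5 hr were -0.61 and 0.96.

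The 13 eIF3 subunits did not move as 1 block. At 1.5 hr 7 were at least 2-fold higher as deposited, where 29.8% of all coding symbols were. On the relative scale 5 were higher and 1 lower, beside 15.8% and 17.4%, and the ratios ran from -1.06 for Eif3b to 1.89 for Eif3e. Eif3e was at 258 before TNFα and 1302, 428 and 1157 after 1.5, 6 and 24 hr, and it was among the 3 highest relative log2 ratios at every time (1.89, 1.47 and 2.06). It has 29.2% of its windows elsewhere in the genome, so its values are uncertain. Eif3b, a core subunit, was at 2636, 1720, 2308 and 1566, lower at 1.5 and 24 hr, the reverse of the order in most factors. The ratio of Eif3b to Eif3e was 10.2 before TNFα and 1.32, 5.39 and 1.35 after 1.5, 6 and 24 hr. Their GC contents differ (55.7% and 39.9%), and after centring on it the log2 ratios at 1.5 hr were -0.66 and 0.91.

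Eif3h, Eif3i and Eif3l stayed at least 2-fold higher at 1.5 and 24 hr on all 3 scales, and their GC contents lay between 50.8% and 52.9%. Eif3h has 28.6% of its windows elsewhere in the genome, Eif3i 0.84% and Eif3l 0%. Eif3i was at 523 before TNFα and 1881, 444 and 1777 after 1.5, 6 and 24 hr. Eif3k, the highest of the group, was at 3967, 4097, 1432 and 3621, and Eif3f at 2188, 2910, 797 and 2369. Both were low at 6 hr, with relative log2 ratios of -0.73 and -0.72. The highest of the 13 subunits was 62.2 times the lowest in the untreated library, and 22.2, 30.0 and 25.5 times at 1.5, 6 and 24 hr, with an SD of log2 values over the subunits of 1.61, 1.14, 1.21 and 1.23. The lowest was Eif3j in every library, which had 63.8 before TNFα, passed the minimum through the TNFα libraries and has 83.2% of its windows elsewhere, and the same spread was not taken over other genes.

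**Figure D4:**
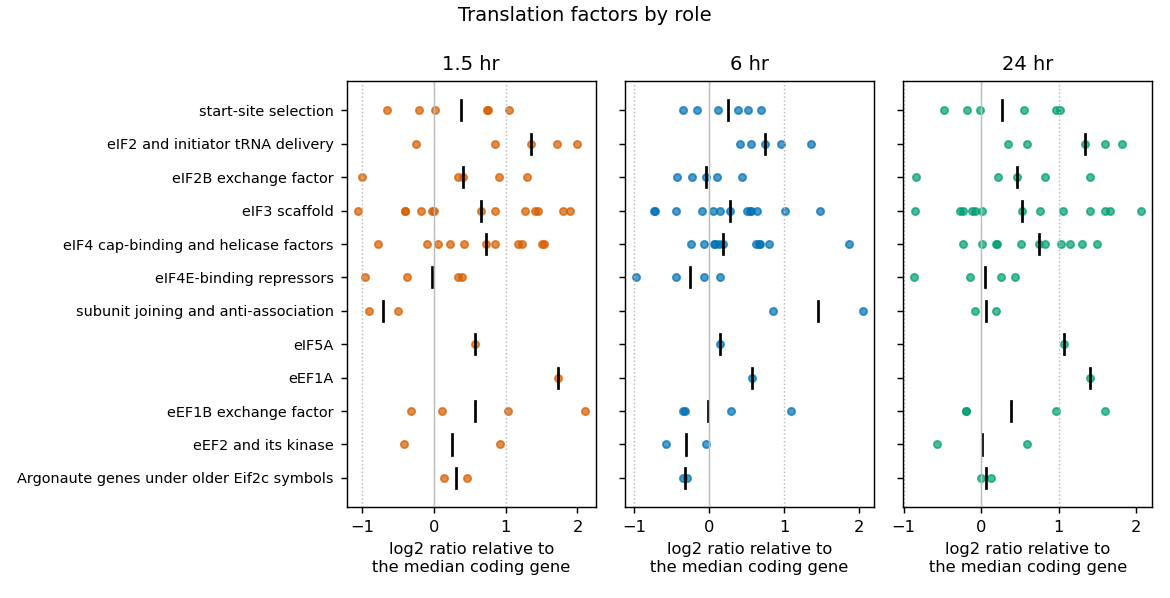
Relative log2 ratio of each factor above the minimum, grouped by role, at 1.5, 6 and 24 hr of TNFα. Points are genes, black bars are medians of a role, and dotted lines mark 2-fold. At 1.5 hr the eIF2 group has a median of 1.36, and the subunits of eIF3 run from -1.06 to 1.89. In the eIF2 group Eif2a, Eif2s1 and Eif2s3x passed the minimum through the libraries in which they were high, which raises that median.

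In the group of cap-binding and helicase factors 6 of 11 genes were at least 2-fold higher after 1.5 hr, 1 after 6 hr and 4 after 24 hr, where 29.8%, 1.83% and 16.8% of all coding symbols were. Eif4a1, the main helicase of initiation, was at 1479 before TNFα and 5720, 1402 and 3922 after 1.5, 6 and 24 hr. Its close paralogue Eif4a2 was at 150, 460, 138 and 357, so the ratio of the pair stayed between 9.83 and 12.4. Eif4a3, which works in the exon junction complex, was at 450, 817, 228 and 555, and the ratio of Eif4a1 to Eif4a3 was 3.29 in the untreated library and 6.15 to 7.07 after TNFα. With GC contents of 49.2% and 54.1%, the log2 ratios of this pair at 1.5 hr were 0.96 and 0.64 after centring. Both Eif4a1 and Eif4a2 share much sequence with other loci (80.3% and 39.3% of windows).

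The cap-binding proteins differed from each other. Eif4e was at 96.3 before TNFα and 379, 99.9 and 291 after 1.5, 6 and 24 hr, and Eif4e2, which binds the cap without recruiting eIF4G, at 567, 1274, 357 and 1076. Eif4e3 was at 78.7, 99.9, 171 and 120, with its highest value at 6 hr. It was 1 of the 2 factors at least 2-fold higher there, but its columns lay apart, at 210 in R1 and 131 in R2, and the R2 column alone gave a log2 ratio of 0.89. Both Eif4e and Eif4e3 had an untreated value under 100 and passed the minimum through the libraries in which they were higher. The ratio of Eif4e to Eif4e3 was 1.22, 3.80, 0.58 and 2.42 in the 4 libraries.

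Among the scaffolds Eif4g1 was at 1442, 2035, 819 and 1557, and Eif4g3 at 645, 510, 421 and 588. Eif4g2, which lacks the site for eIF4E, was at 256, 811, 245 and 562, with relative log2 ratios of 1.22, 0.68 and 1.03 that were 0.38, 0.19 and 0.25 after centring on GC content. The ratio of Eif4g1 to Eif4g2 was 5.64 in the untreated library and 2.51 at 1.5 hr, but the transcripts differ in GC content (54.2% and 42.8%) and their log2 ratios at 1.5 hr were 0.28 and 0.38 after centring on it.

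None of the 4 genes whose proteins bind and restrain eIF4E was at least 2-fold higher at any time. As deposited, 29.8%, 1.83% and 16.8% of all coding symbols were after 1.5, 6 and 24 hr. At 6 hr 2 of the 4 were at least 2-fold lower as deposited, Eif4ebp1 (-1.18) and Eif4ebp3 (-1.71), beside 31.5% of all coding symbols. On the relative scale 0 were lower at 6 hr. Eif4ebp1 was at 6057 before TNFα and 6351, 2673 and 5857 after 1.5, 6 and 24 hr, and Eif4ebp2 at 248, 445, 142 and 362. Eif4ebp3 was at 210, 147, 64.1 and 124 and had one of the 3 lowest relative log2 ratios at each time (-0.96, -0.97 and -0.86). Its columns also lay furthest apart of all factors above the minimum in the untreated, 1.5 hr and 24 hr libraries. In the untreated library, which enters each of its ratios, they were at 249 in R1 and 171 in R2. The ratio of Eif4ebp1 to Eif4e was 62.9 before TNFα and 16.8, 26.8 and 20.1 after 1.5, 6 and 24 hr, and these 2 transcripts have GC contents of 57.2% and 40.3%. After centring on GC content their log2 ratios were 0.21 and 0.55 at 1.5 hr and 0.40 and 0.58 at 24 hr. Eif4e passed the minimum although its untreated value was under 100.

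**Figure D5:**
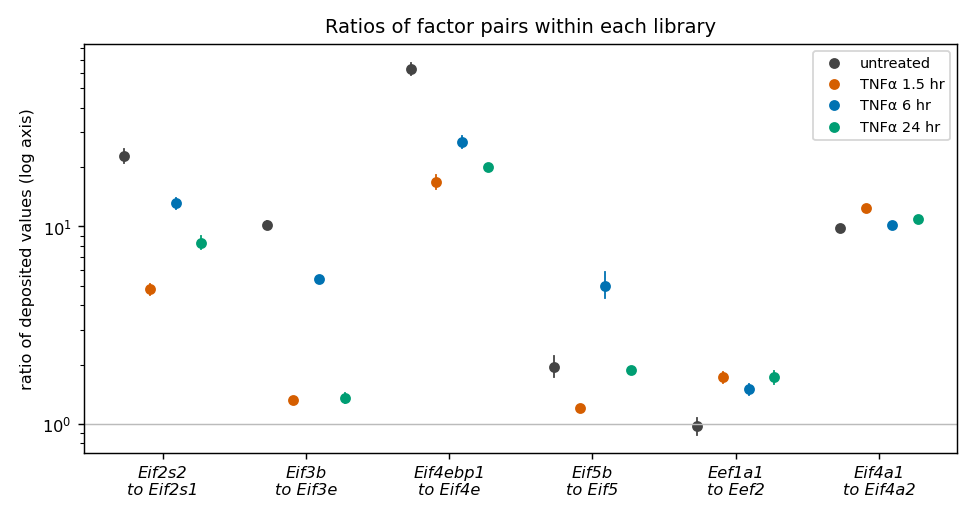
Ratio of the deposited values of 2 factors within each library (log axis) for 6 pairs, with points for the mean of the columns and lines joining R1 and R2. A factor common to a library cancels in these ratios. Eif2s2 to Eif2s1 is 22.8 untreated and 4.82 at 1.5 hr, while Eif4a1 to Eif4a2 stays between 9.83 and 12.4.

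Eif5b (chr1:38054855-38112424, mm9) and Eif4e3 were the only 2 of the 56 factors (3.57%) highest at 6 hr as deposited, beside 2.45% of all coding symbols. On the relative scale 8 factors (14.3%) were highest at 6 hr, beside 18.8%. Eif4e3 passed the minimum although its untreated value was under 100. Eif5b encodes the GTPase that joins the large subunit, and it was at 631 before TNFα and 456, 1562 and 643 after 1.5, 6 and 24 hr. The 6 hr values of the columns were 1514 in R1 and 1611 in R2. As deposited 45 of the 56 factors (80.4%) were lowest at 6 hr, beside 73.4% of all coding symbols, and on the relative scale 16 (28.6%) were, beside 24.9%. The log2 ratio at 6 hr was 1.31 as deposited, 2.05 relative and 1.55 after centring on GC content, and at 1.5 hr the last of these was -1.76. Only 0.86% of its windows were found elsewhere. Eif6, which keeps the subunits apart, was at 1652, 1594, 1792 and 2033, within 2-fold of untreated throughout, and its relative log2 ratio at 6 hr was 0.86.

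Of the 6 start-site selection genes 3 were at least 2-fold higher at 1.5 hr, 1 lower at 6 hr and 2 higher at 24 hr, beside 29.8%, 31.5% and 16.8% of all coding symbols. Eif1 was at 2412 before TNFα and 3301, 1288 and 2270 after 1.5, 6 and 24 hr. Its paralogue Eif1b was at 78.7, 220, 67.5 and 165, at least 2-fold higher at 1.5 hr on the relative scale (1.04). After centring on GC content it was within 2-fold at 1.5 hr (0.71). Eif1b was 1 of the 3 genes counted as higher at 1.5 hr. With an untreated value under 100, it passed the minimum through the 1.5 and 24 hr libraries, in which it was high. The ratio of the pair was 30.7 in the untreated library and 13.7 at 24 hr, and 57.9% of the windows of Eif1 were found elsewhere. Of the Argonaute genes Eif2c2 was at 156, 293, 76.5 and 167, and without the 4 Argonaute genes 27 of 54 factors were at least 2-fold higher at 1.5 hr and 10 lower at 6 hr.

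Other genes of translation were set beside the factors from a list of termination, poly(A)-binding, signalling, modification and mitochondrial genes. Of the 33 found, 21 were above the minimum. Of these, 7 were at least 2-fold higher and 2 lower at 1.5 hr, 0 and 4 at 6 hr, and 6 and 2 at 24 hr. Among all coding symbols 29.8% and 7.97%, 1.83% and 31.5%, and 16.8% and 12.8% were. Their median relative log2 ratio was between 0.03 and 0.05. The cytoplasmic poly(A)-binding proteins, which bridge the message's tail to eIF4G, went opposite ways. Pabpc1 was at 892 before TNFα and 3554, 1168 and 4162 after 1.5, 6 and 24 hr, whereas Pabpc4 was at 3643, 1531, 6330 and 1829. Pabpc4 was thus highest at 6 hr, with a relative log2 ratio there of 1.54.

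Other genes of this list were at least 2-fold from the median coding gene at some time. The recycling factor Abce1 had relative log2 ratios of 1.79, 1.19 and 1.43, and the release factor Gspt1 1.23, 0.82 and 1.46. After centring on GC content these were 0.81, 0.50 and 0.52 for Abce1 and 0.66, 0.57 and 0.93 for Gspt1, all within 2-fold. Ppp1r15a, the stress-induced phosphatase subunit that acts on eIF2, was at 328, 914, 213 and 891. Rheb, an activator of mTOR, was at 75.5, 354, 88.5 and 257, and Paip2, which inhibits poly(A)-binding protein, at 340, 1121, 241 and 783. Abce1 (76.0 untreated), Gspt1 (87.5) and Rheb passed the minimum through the TNFα libraries in which they were high. They were among the genes of this list counted as higher at 1.5 and 24 hr. On the lower side were the S6 kinase Rps6kb2, at 532, 270, 315 and 236, the diphthamide enzyme Dph1, which modifies eEF2, at 738, 361, 393 and 309, and the mitochondrial initiation factor Mtif3, at 498, 286, 253 and 258. After centring on GC content Paip2 (0.29 at 1.5 hr), Rps6kb2 (-0.94) and Dph1 (-0.99) were within 2-fold.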

How the data were processed

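Paired-end directional RNA-seq reads were aligned by the authors to mm9 (TopHat), and the deposited table holds their RPKM for each RefSeq transcript, in 2 columns (R1 and R2) for each of 4 libraries. Columns were matched to times through the library names of the study's depth list. One label field of the 24 hr library describes ChIP, but its other fields describe RNA-seq. ChIP-seq reads were aligned with Bowtie, and the 11157 deposited MACS peaks each have a tag count, a score based on the p-value, a fold enrichment (a ratio) and an FDR as a percent.

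For each symbol the NM_ row with the highest average was used, R1 and R2 were averaged, and genes with an average deposited value above 100 were kept, a round minimum on the table's own scale. At least 2-fold from untreated, with no pseudocount, was counted as higher or lower, following the fold criterion of the study. Relative ratios had the median of all coding symbols subtracted, and a further scale was centred in 20 bins of GC content. Starts, GC content and sequences came from GENCODE vM1 and mm9, matched for 60 of 61 genes (not Eif2s3y) and 19713 coding symbols. A gene's start was that of its coding transcript with the longest coding part.

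Genes were named by a fixed rule (paralogue sets, the highest gene of each role, and the 3 highest and 3 lowest relative ratios at each time), and of the other lists those at least 2-fold from the median. Eef1b2, Eef2k, Eif2a, Eif2b1, Eif2b3, Eif3h, Eif3j, Eif3l, Dhps and Dohh, the pairs of genes set in ratio and the limits of GC content and shared windows were chosen after values were seen. The members and lists were chosen with earlier results of these data known. The counting and centring steps were tested on simulated data with known changes. Python 3.11.15, numpy 2.4.6 and pandas 2.3.3 were used.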

Additional observations from a re-analysis of the deposited data

Results flagged for a closer look

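The set of factors stood on opposite sides of the untreated library at 1.5 and 6 hr, with a median log2 ratio as deposited of 0.88 and -0.59, and both the R1 and the R2 column gave these directions. The difference between the times was not tested, since there was 1 library for each, and at 6 hr the median of all coding symbols was -0.74.

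Eif2b3 was at least 2-fold higher at 1.5 hr (log2 ratio 1.35) and at least 2-fold lower at 6 hr (-1.18) in both columns. This difference was not tested either. Its second NM_ row gave 1.60 and -0.68.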

How the results depend on the processing

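Counts and medians kept their direction under each single column, the pseudocount of 10, the sum of all NM_ rows, no minimum and without the Argonaute genes, and most values moved little. Scaling changed more. With the median of coding symbols subtracted, 17 genes were at least 2-fold higher and 2 lower at 1.5 hr, 6 higher and 0 lower at 6 hr, and the medians were 0.44, 0.14 and 0.49. Scaled to the sum of coding symbols, 7 were higher and 0 lower at 6 hr, with medians of 0.62, 0.29 and 0.64. In GC bins 8 were higher and 3 lower at 1.5 hr, 0 lower at 6 hr and 8 higher at 24 hr, with medians of 0.23, 0.10 and 0.24. The uncalled median at 6 hr thus lay below 0 as deposited and above 0 under all 3 scalings. With no minimum 1 gene was lower at 1.5 hr and 2 at 24 hr, and the median at 24 hr was 0.56, as with the pseudocount, and 0.62 without the Argonaute genes. The R2 column alone gave 1 higher at 6 hr and 1 lower at 24 hr.

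Another 2 settings were chosen after seeing the data. Asking for 2-fold in both columns left 1 gene higher at 6 hr. A minimum of 100 in the untreated library kept 47 genes, of which 19 were higher at 1.5 hr (27 of 56 otherwise), 1 at 6 hr and 11 at 24 hr, with medians of 0.77 and 0.32 at 1.5 and 24 hr, since it removes genes that were low before TNFα. The share of all coding symbols under this minimum was not taken, so these counts have no share to set beside them. The count of genes with an H3K4me3 peak was 56 over the start itself and at an FDR of at most 1%, and 59 within 5 kb. No named gene that was at least 2-fold from untreated changed direction under the alternatives. Without replicates, a change in a median was read against the larger shift given by a single column. No paired analysis was possible because each time has 1 library. The depth behind each value is unknown.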
